A study of Mus musculus with 6 samples.

Results

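Havcr2, the gene of the inhibitory receptor Tim-3, and 4 genes that flank it on chromosome 11 (the long non-coding RNA gene 2310031A07Rik, Med7, Cyfip2 and Adam19) are described here in regulatory T (Treg) cells from mouse tumours. The 5 genes were picked by symbol out of 55450 in the deposited table, with their values in Tim-3 deficient and Tim-3 sufficient cells already known, so those values are given as a description, and nothing is read from their calls in a fit over all genes. All 5 passed the filter on low values that left 12155 genes (a level of at least 1 TPM, a length-scaled share of all transcripts, in at least 3 of 6 libraries). The data comprised 6 RNA-seq libraries of Treg cells sorted from MC38 tumours, a transplantable colon carcinoma, in C57BL/6 mice. In 3 libraries the mice had Tim-3 sufficient Treg cells, and in 3 the Treg cells were Tim-3 deficient. The column names mark the sufficient libraries WT and the deficient ones KO. The labels used here give no allele, Cre driver or age, and leave unsaid whether replicate libraries stem from different animals, so p-values measure only how far these libraries vary, and that variation may be technical. Libraries are called by marks in their column names, sufficient A1, B1 and dated, and deficient C1, D and dated, where "dated" is the 1 library in each group whose name carries a calendar date.

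Tim-3 is a type I membrane protein of the T cell immunoglobulin and mucin family. It appears on differentiated effector T cells, on tumour Treg cells and on macrophages, dendritic cells and mast cells, and its tail, which has no inhibitory motif of the classical kind, is bound by the adaptor Bat3 (gene Bag6) and by Src family kinases. Its neighbours have unrelated roles. Med7 is a subunit of Mediator, the complex that links transcription factors to RNA polymerase II. Cyfip2 belongs to the WAVE complex, which drives actin branching under the control of Rac. Adam19 is a membrane metalloprotease of a family whose members cut receptors off the cell surface. 2310031A07Rik is annotated as a long intergenic non-coding RNA, and no function is given for it here.

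In GENCODE release 21 coordinates (GRCm38), the 5 genes lie within one stretch of chromosome 11. Havcr2 (ENSMUSG00000020399.14, chr11:46454935-46481255) is on the plus strand. 2310031A07Rik (ENSMUSG00000097457.1, chr11:46440362-46447248) is on the minus strand, and its start lies 7.7 kb before the Havcr2 start, so that the pair point away from each other. Med7 (chr11:46436925-46442721, plus strand) runs tail to tail into the non-coding gene. Further off, Cyfip2 (chr11:46193850-46312859, minus strand) starts 142.1 kb and Adam19 (chr11:46055992-46147343, plus strand) 398.9 kb before Havcr2.

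Of the 990 bases of the spliced non-coding RNA, exon 2 holds 810, and 609 of those lie opposite exons of Med7. The labels do not state a strand-specific protocol, so reads in those 609 bases cannot be assigned to one gene or the other. Exon 1, 180 bases at chr11:46447069-46447248, shares no base with Med7 exons. It is shown because none of it lies opposite Med7 exons, read 5′ to 3′ on the minus strand from the GENCODE transcript, with the 3 bases that join exon 2 in capitals.
2310031A07Rik exon 1: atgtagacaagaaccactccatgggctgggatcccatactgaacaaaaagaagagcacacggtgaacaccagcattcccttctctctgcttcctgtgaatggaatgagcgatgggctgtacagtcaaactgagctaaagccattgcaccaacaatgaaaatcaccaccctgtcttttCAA

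The 250 bases before the RefSeq starts of Havcr2 (chr11:46454681-46454930, plus strand) and Med7 (chr11:46436697-46436946, plus strand) are shown on GRCm38.p6, because Havcr2 separated the groups and Med7 did not. The table of promoters matched 4 of the 5 members, and for Med7 of 2 listed windows the one nearer the GENCODE start was used. Capitals mark matches on either strand to 6 motifs: TTANGTAA (NFIL3), AGGTGT (T-box), TGCTGA (MAF core), GAAAGT (PRDM1), CCGGAA (ETS) and TGANTCA (AP-1), and the marked matches do not overlap.
Havcr2: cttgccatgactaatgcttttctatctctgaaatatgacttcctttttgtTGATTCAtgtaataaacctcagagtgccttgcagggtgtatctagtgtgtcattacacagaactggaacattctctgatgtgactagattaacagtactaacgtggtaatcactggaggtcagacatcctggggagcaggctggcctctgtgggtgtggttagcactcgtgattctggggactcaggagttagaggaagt
Med7: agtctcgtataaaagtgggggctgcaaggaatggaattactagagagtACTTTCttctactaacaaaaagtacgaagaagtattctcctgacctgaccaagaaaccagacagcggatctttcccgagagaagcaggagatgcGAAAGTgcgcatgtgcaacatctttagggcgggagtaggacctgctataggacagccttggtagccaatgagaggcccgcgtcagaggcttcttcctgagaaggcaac

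The Havcr2 window held 1 match to the AP-1 letters, beginning 200 bases before the start, and none to the other 5 motifs. The AP-1 letters occurred in 6.75% of 32851 promoter windows of that length. The Med7 window held 2 matches to the PRDM1 letters, beginning 202 and 108 bases before the start, and 12.3% of windows held at least 1. A match is a description of the letters and not of binding. The GC content was 44.8% in the Havcr2 window and 49.2% in that of Med7, against 66.4% for Cyfip2, 60% for Adam19 and a median of 52.4% over all windows. These windows precede RefSeq starts, which can differ from the GENCODE starts. The Cyfip2 window (chr11:46312359-46312608, minus strand) lies inside the GENCODE gene, and the Med7 window ends at 46436946, past the GENCODE start of 46436925.

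Havcr2 separated the groups, with all 3 deficient values under the lowest sufficient one. In log2(TPM + 1), sufficient cells gave 5.70 (A1), 5.64 (B1) and 4.49 (dated), and deficient cells 3.54 (C1), 4.27 (D) and 2.55 (dated). In each group the dated library was the lowest, and the gap between the lowest sufficient and the highest deficient value was the narrow one between sufficient dated and deficient D. In linear units Havcr2 stood at 51.1, 49.0 and 21.5 TPM in sufficient and at 10.6, 18.3 and 4.84 TPM in deficient libraries. The deficient mean of 11.3 ± 6.75 TPM was 27.8% of the sufficient mean of 40.5 ± 16.5 TPM (SD, n = 3 each). That share was 28.9% among the libraries without a date and 22.5% in the dated pair. On the log2 scale the difference, deficient minus sufficient, was -1.83, and it ranged from -2.24 without deficient D to -1.37 without the deficient dated library. A gene-level value does not tell which exons the remaining reads came from, so it does not measure how complete the loss of the protein was.

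The divergent non-coding gene 2310031A07Rik was lower by almost the same amount and with less spread. Its log2(TPM + 1) values were 5.90, 5.78 and 5.86 in sufficient A1, B1 and dated, and 3.69, 4.24 and 4.05 in deficient C1, D and dated. The groups did not overlap, the sufficient libraries lay within a narrow band, and the dated libraries were not the lowest of either group. Means were 5.85 ± 0.06 and 3.99 ± 0.28 (SD, n = 3 each), a difference of -1.85. In TPM the deficient mean, 15.1 ± 3.06, was 26.7% of the sufficient mean, 56.6 ± 2.31 (SD, n = 3 each), and that share was 26.5% without the dated pair and 27.2% within it. Leaving out 1 library moved the log2 difference between -1.98 and -1.70.

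Med7, which overlaps the end of the non-coding gene, had no such shift. Its log2(TPM + 1) values were 6.56, 6.37 and 5.92 in sufficient A1, B1 and dated, and 6.61, 6.94 and 5.83 in deficient C1, D and dated. The groups overlapped, and in both the dated library was the lowest. The means of 6.28 ± 0.33 and 6.46 ± 0.57 (SD, n = 3 each) differed by 0.18, less than either SD. Libraries without a date differed by 0.31 and the dated pair by -0.09, and the value ran from -0.06 without deficient D to 0.49 without the deficient dated library.

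Cyfip2 and Adam19, the more distant members, also overlapped between the groups. Cyfip2 had 4.64, 4.02 and 4.13 in sufficient A1, B1 and dated, and 4.08, 4.35 and 4.58 in deficient C1, D and dated, on the log2(TPM + 1) scale. Its means, 4.27 ± 0.33 and 4.34 ± 0.25 (SD, n = 3 each), differed by 0.07, a value that turned to -0.07 with quantile normalization and to -0.06 when each library was centred on its median.
Adam19 had 4.40, 4.33 and 3.45 in sufficient A1, B1 and dated, and 3.61, 3.79 and 4.16 in deficient C1, D and dated. The dated library was the lowest sufficient and the highest deficient value of Adam19, so the sign depended on the libraries compared: it came to -0.67 without the dated pair, 0.71 within that pair and -0.21 over all 6. Without sufficient B1 and deficient C1 it was 0.05. For Cyfip2 the same values were -0.11 and 0.45.

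**Figure D1:**
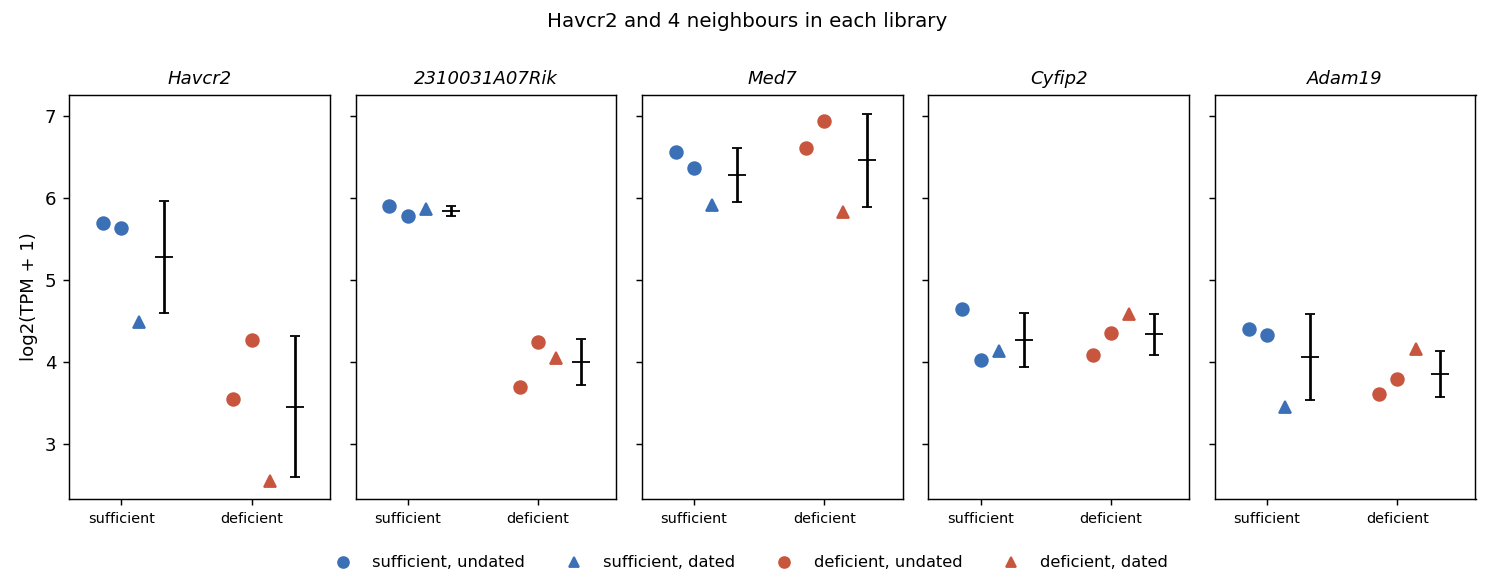
Level of Havcr2 and its 4 neighbours in log2(TPM + 1), 1 point per library (circles undated, triangles dated), with the group mean and SD (n = 3) in black. Havcr2 and 2310031A07Rik separate the groups (means 5.28 and 3.45, and 5.85 and 3.99), while Med7, Cyfip2 and Adam19 overlap.

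Because TPM is scaled by transcript length, levels can be set side by side within a group. In sufficient libraries the order of mean log2(TPM + 1) was Med7 (6.28), 2310031A07Rik (5.85), Havcr2 (5.28), Cyfip2 (4.27) and Adam19 (4.06). Havcr2 and Cyfip2 were further apart than either SD (0.68 and 0.33), as were Med7 and 2310031A07Rik (SDs of 0.33 and 0.06), while the other neighbours in that order differed by less than the larger SD. In deficient libraries Med7 stood alone at 6.46, and Cyfip2 (4.34 ± 0.25), 2310031A07Rik (3.99 ± 0.28), Adam19 (3.85 ± 0.28) and Havcr2 (3.45 ± 0.87) followed (SD, n = 3 each). Of these 4, neighbours in the order differed by less than the larger SD, except Cyfip2 and 2310031A07Rik. Among the 12155 tested genes ordered from the highest level, the median rank of Havcr2 was 2470 in sufficient and 6595 in deficient libraries, and that of 2310031A07Rik was 2251 and 5036. Med7 had median ranks of 1666 and 1593.

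Ratios between genes of the same library do not depend on the total to which TPM is scaled. Havcr2 reached 0.547, 0.599 and 0.362 of Med7 in sufficient A1, B1 and dated, against 0.110, 0.150 and 0.0866 in deficient C1, D and dated, with no overlap. The non-coding RNA reached 0.627, 0.661 and 0.961 of Med7 in the sufficient and 0.123, 0.147 and 0.278 in the deficient libraries, in the same order, again with no overlap. Reads in the 609 bases that lie opposite Med7 exons cannot be assigned to one gene or the other, which limits this ratio of the non-coding RNA to Med7. Relative to Cyfip2, Havcr2 had a mean ratio of 2.22 ± 0.965 in sufficient and 0.606 ± 0.368 in deficient libraries (SD, n = 3 each), without overlap. A ratio within a library shows that the 2 genes changed unequally, not that one of them stayed constant.
The ratio of Havcr2 to 2310031A07Rik followed the date mark and not the group. It was 0.873 and 0.907 in sufficient A1 and B1 and 0.896 and 1.02 in deficient C1 and D, but 0.376 in the sufficient dated and 0.311 in the deficient dated library. Its group means, 0.719 ± 0.297 and 0.742 ± 0.379 (SD, n = 3 each), differed by much less than their SDs.

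**Figure D2:**
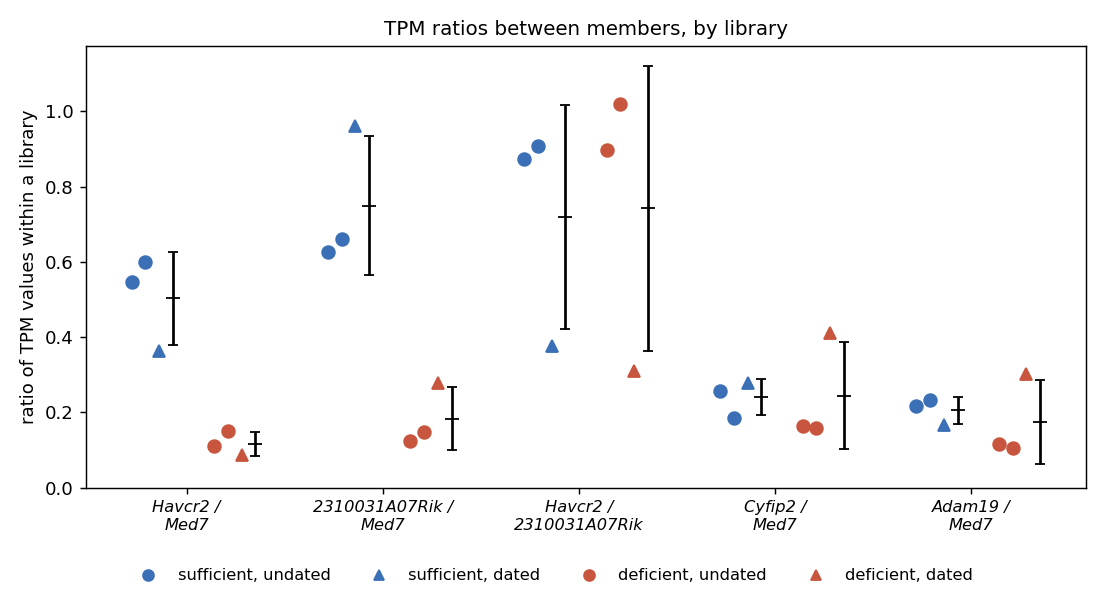
Ratios of TPM values between members within each library (circles undated, triangles dated), with group mean and SD (n = 3) in black. The ratios to Med7 of Havcr2 and 2310031A07Rik separate the groups, whereas the ratio of Havcr2 to 2310031A07Rik lies between 0.873 and 1.02 in the 4 undated libraries and at 0.376 and 0.311 in the dated pair.

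In a limma fit over the 12155 tested genes, 25 genes (0.206%) were called at a Benjamini-Hochberg adjusted p under 0.05, 16 higher (0.132%) and 9 lower (0.074%) in deficient cells, a split of 16 and 22 with quantile normalization and of 11 and 19 with median centring. Of the 5 members, 1 was called, 2310031A07Rik, against 0.206% of tested genes, and with the date mark as a block 2 were called, the second being Havcr2, against 1.97%. Groups did not overlap for 2 of the 5 members, both lower in deficient libraries, against 6.73% of tested genes that were lower without overlap. The members were chosen with this contrast known, so nothing is read from these counts. The call of 2310031A07Rik was lost when sufficient A1, sufficient B1, the sufficient dated library or deficient D was left out. It was also lost without both sufficient B1 and deficient C1, with no filter on low values and with no variance trend. The difference of 2310031A07Rik ran from -1.99 to -1.62 over the 15 alternative fits, several of which cannot alter it.

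The rest of the neighbourhood was taken by position. Of 41 annotated genes whose start lies within 1 Mb of the Havcr2 start, 15 were listed at 0 in every library and 14 were tested. Without the 5 members, 9 tested genes remained, of which limma called 0, and 0 had an unadjusted p under 0.05. None of the 9 separated the groups, against 17.6% of all tested genes that did so in either direction. Their differences ran from -0.47 to 0.10 with a median of 0.01, beside a median of 0.09 over all tested genes.

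Gm12168, a processed pseudogene between the non-coding gene and Havcr2 and 3.6 kb before the Havcr2 start, had the lowest difference of the 9, -0.47 ± 0.36 (SE, adjusted p = 0.638 in limma). It stood at 1.32, 0.97 and 1.09 in sufficient libraries and at 0, 1.06 and 0.92 in deficient C1, D and dated, so that the low value was that of deficient C1. On the other side of Havcr2, the nearest tested gene was the pseudogene Gm12174, 272.9 kb away, with a difference of 0.08.
Fam71b, 58.4 kb before Havcr2, was too low to be tested. It was listed at 0 in deficient C1, D and dated and stood at 1.25, 1.01 and 0.18 in sufficient A1, B1 and dated on the log2(TPM + 1) scale. Its groups did not overlap, but the sufficient dated library was close to 0, and since TPM values keep no read counts it is not known how many reads these levels rest on. Out to 5 Mb on each side, 44 tested genes other than the members gave 0 calls in limma (5 had an unadjusted p under 0.05), with 6 higher and 2 lower without overlap, against 10.9% and 6.73% of all tested genes.

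**Figure D3:**
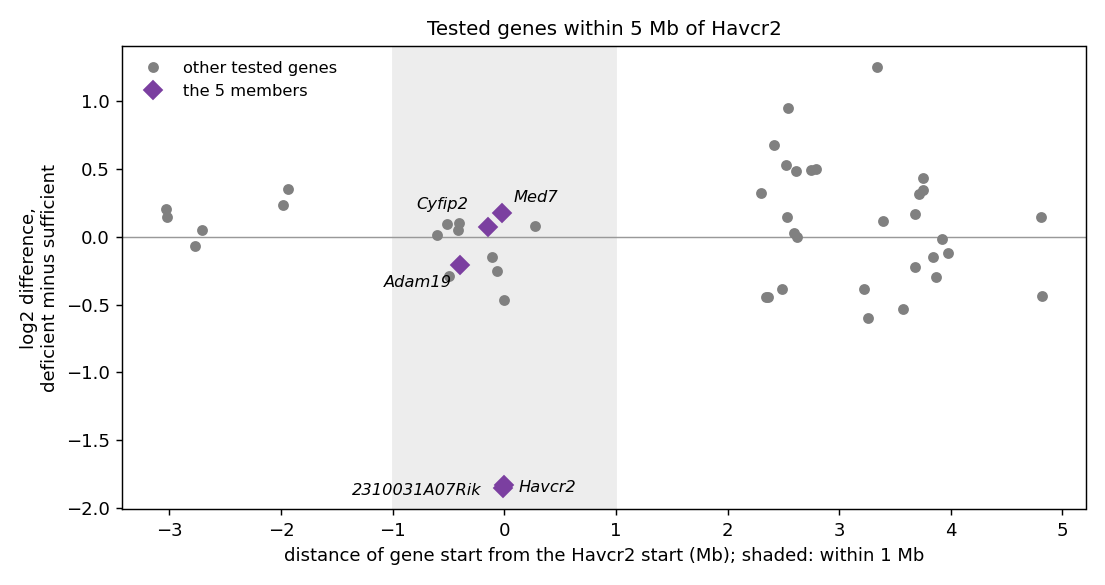
Log2 difference (deficient minus sufficient) of the 49 tested genes that start within 5 Mb of Havcr2, against distance from the Havcr2 start in Mb, with the members as purple diamonds and the 1 Mb window shaded. Havcr2 (-1.83) and 2310031A07Rik (-1.85) lie apart from the other genes, which run from -0.60 to 1.25.

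The other members of the Tim family, which share the cluster with Havcr2, were at or near 0. Havcr1 (Tim-1) was listed at 0 in all 6 libraries. Timd4 (Tim-4, a receptor for phosphatidylserine) reached 0.25 in sufficient B1 on the log2(TPM + 1) scale and was listed at 0 in the rest, and Timd2 reached at most 0.70, in sufficient A1. The list of Tim family, ligand, adaptor and signalling genes held 24 symbols apart from Havcr2. Of these, 22 were in the deposited table, Timd5 and Timd6 not being found, and 18 were tested. Limma called 0 of the 18, and 7 had an unadjusted p under 0.05, as did 1418 of 12155 tested genes. With 5 positive and 13 negative values, their median difference was -0.27, beside 0.09 over all tested genes, and 6 were lower without overlap, against 6.73% of all tested genes. This list, like those below, was chosen with earlier results of these data known, so nothing is read from its counts.

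Nfil3 and Maf, genes of transcription factors known to act on Havcr2 in T cells, had the largest differences among the 6 that were lower without overlap. The list holds other such factors, named after their values were seen. Tbx21 differed by -0.69 without overlap (adjusted p = 0.318 in limma). Prdm1 overlapped between the groups and differed by -0.28 over all libraries (adjusted p = 0.812 in limma) and by 0.27 in the dated pair. Nfil3 stood at 7.37, 7.19 and 6.91 in sufficient A1, B1 and dated and at 5.30, 5.47 and 6.73 in deficient C1, D and dated. The groups did not overlap, but the deficient dated library came close to the sufficient ones. Its difference was -1.32 (adjusted p = 0.216 in limma), -1.89 without the dated pair and -0.18 within it.
Maf stood at 7.29, 7.0 and 6.89 in sufficient and at 5.88, 6.02 and 6.36 in deficient libraries, in the same order, a difference of -0.98 without overlap (adjusted p = 0.106 in limma). Without the deficient dated library, the highest deficient one in both genes, adjusted p was 0.0143 for Nfil3 and 0.0473 for Maf in limma. That fit called 121 of 12155 tested genes, against 25 with all libraries. A date block, under which 240 genes (1.97%) were called, gave Maf an adjusted p of 0.0421 in limma and did not call Nfil3. In Ptpn6, the gene of the phosphatase SHP-1, the difference was -0.89 (adjusted p = 0.0805 in limma). Ptpn6 passed in limma with the date block (0.0267) and with quantile normalization (0.0419), where 38 genes were called. It is named here after its values were seen, as is Lgals9, the gene of the Tim-3 ligand galectin-9, which differed by 0.15 (adjusted p = 0.794 in limma), with 8.03 ± 0.09 in sufficient and 8.18 ± 0.33 in deficient libraries (SD, n = 3 each).

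For Med7, Cyfip2 and Adam19 the other genes of their complex or family were also not called. Of 31 tested Mediator genes other than Med7, limma called 0 and 2 had an unadjusted p under 0.05, beside 1418 of all 12155 tested genes. The median difference of the 31 was 0.09, equal to that of all tested genes. Without overlap, 3 were higher and 1 was lower, against 10.9% and 6.73% of all tested genes. Among these 4 the largest differences were 0.52 in Med21 (adjusted p = 0.348 in limma) and -0.51 in Med13, a subunit of the kinase module (adjusted p = 0.524 in limma).
Of 14 tested genes of the WAVE complex, Rac and their partners other than Cyfip2, limma called 0 and 0 had an unadjusted p under 0.05 (median -0.04, beside 0.09 over all tested genes). Without overlap, 0 were higher and 1 was lower, against 10.9% and 6.73% of all tested genes. The lower one was Fxr1, an RNA-binding relative of the fragile X protein, at -0.26. Cyfip1, the paralog of Cyfip2, stood at 4.81 ± 0.70 and 5.0 ± 0.51 (SD, n = 3 each, named after its values were seen).
Of 8 tested ADAM proteases and their regulators other than Adam19, limma called 0 and 4 had an unadjusted p under 0.05, beside 1418 of all 12155 tested genes (median -0.25, beside 0.09). Without overlap, 1 was higher and 2 were lower, against 10.9% and 6.73% of all tested genes. Adam17, which with Adam10 releases Tim-3 from the cell surface, stood at 5.19, 4.98 and 4.65 in sufficient A1, B1 and dated and 4.47, 4.46 and 4.14 in deficient C1, D and dated, a difference of -0.58 without overlap (adjusted p = 0.352 in limma). Adam9 differed in the other direction, by 0.69 without overlap (adjusted p = 0.417 in limma), and Adam10, named after its values were seen, by -0.54 (adjusted p = 0.390 in limma). Timp2, an inhibitor of metalloproteases named after its values were seen, overlapped between the groups and differed by -1.45 over all libraries (adjusted p = 0.348 in limma) and by -0.54 in the dated pair. Without the deficient dated library the Timp2 difference was -2.13 (adjusted p = 0.0243 in limma), in a fit that called 121 of 12155 tested genes. Timp1, the other tested inhibitor of this kind, also overlapped and went the other way, by 1.69 (adjusted p = 0.461 in limma). Without the deficient dated library the Timp1 difference was 2.66, and in the dated pair it was -0.07. Timp1 too is named after its values were seen.

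The genes whose profile over the 6 libraries was most like that of Havcr2 were sought by the root mean square difference of log2 values after each gene was centred on its own mean. Of 10261 protein-coding genes the nearest were Itgb8, an integrin chain that activates TGF-beta (0.30), Slc37a2, a sugar phosphate transporter (0.31), the cytokine gene Il10 (0.34), Galc, a lysosomal galactosidase (0.35), and Il1r2, the decoy receptor for interleukin 1 (0.36). Itgb8 stood at 4.46, 3.78 and 2.42 in sufficient A1, B1 and dated and at 2.27, 2.64 and 1.08 in deficient C1, D and dated. As for Havcr2, the dated library was the lowest in each group, which also held for the other 4 of these genes. Likeness in this measure includes the group difference and the date mark together, and 6 libraries are few for 10261 candidates.
2310031A07Rik ranked 110 of 12154 tested genes by closeness to Havcr2 (0.63), Adam19 2762 (1.03), Med7 3006 (1.04) and Cyfip2 6706 (1.18). The protein-coding genes nearest to 2310031A07Rik itself were the chemokine receptor gene Cxcr6 (0.16), F2rl2, a protease-activated receptor (0.17), and the small GTPase gene Rap2a (0.24), none of them on chromosome 11. In F2rl2 the values were 4.84, 4.80 and 4.76 in sufficient A1, B1 and dated and 2.55, 3.11 and 3.40 in deficient C1, D and dated. The nearest to Med7 were C9orf72 (0.05), Trim68 (0.06) and Aagab (0.07), to Cyfip2 Gpsm3 (0.06), Tmem218 (0.06) and Crebzf (0.07), and to Adam19 Pex6 (0.07), Ep300 (0.08) and 2610507B11Rik (0.09), and for these 3 members the group difference was small. With quantile-normalized values 4 of the 5 genes nearest to Havcr2 stayed among its nearest 5. Under that scaling Cxcr6, F2rl2 and Rap2a ranked 7, 1 and 6 for 2310031A07Rik, C9orf72, Trim68 and Aagab 42, 10 and 84 for Med7, Gpsm3, Tmem218 and Crebzf 12, 11 and 2 for Cyfip2, and Pex6, Ep300 and 2610507B11Rik 1, 4 and 3 for Adam19.

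Since Havcr2 is also transcribed by myeloid cells, mast cells, CD8 T cells and NK cells, markers of those cells are given beside it. In bulk libraries, fewer cells of a type and less RNA per cell cannot be told apart. The 7 Treg markers, Foxp3 among them, were present in all 6 libraries. Their summed level was 4922.1 to 7186.0 TPM in sufficient and 4420.9 to 5668.3 TPM in deficient libraries. The highest marker was Tnfrsf18, with mean log2(TPM + 1) of 11.74 in sufficient and 11.39 in deficient libraries. Foxp3 stood at 5.18 ± 0.35 and 5.49 ± 0.06 (SD, n = 3 each). Of the 7 differences, 2 were positive and 5 negative. The 10 macrophage markers summed to 129.3, 931.2 and 27.7 TPM in sufficient A1, B1 and dated and to 1327.6, 19.3 and 20.8 TPM in deficient C1, D and dated. The high values were those of sufficient B1 and deficient C1, 1 in each group. Havcr2 stood at 5.64 in sufficient B1, beside 5.70 in A1 and 4.49 in the dated library. In deficient C1 it stood at 3.54, beside 4.27 in D and 2.55 in the dated library. The part of macrophages in these Havcr2 values was not tested. Without sufficient B1 and deficient C1, the Havcr2 difference was -1.69 and that of 2310031A07Rik -1.73, while limma then called 0 genes in all, with 2 libraries a group.
The 6 dendritic cell markers summed to 4.64 to 9.58 TPM in sufficient and 2.55 to 8.63 TPM in deficient libraries. Cd8a and Cd8b1 summed to 23.4, 28.4 and 11.3 TPM in sufficient A1, B1 and dated and to 11.8, 42.5 and 13.8 TPM in deficient C1, D and dated. Deficient D, the deficient library with the highest Havcr2, thus had the highest CD8 marker level of the 6, and the part of such cells in its Havcr2 value was not tested. The 3 NK markers summed to at most 8.37 TPM and the 3 B cell markers to at most 1.52 TPM. Among the 4 mast cell markers Mcpt4 and Fcer1a were listed at 0 throughout, and the list summed to at most 3.82 TPM. The 3 markers of tumour epithelium summed to between 9.77 and 24.5 TPM, with Krt8 listed at 0 in all 6 libraries.

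**Figure D4:**
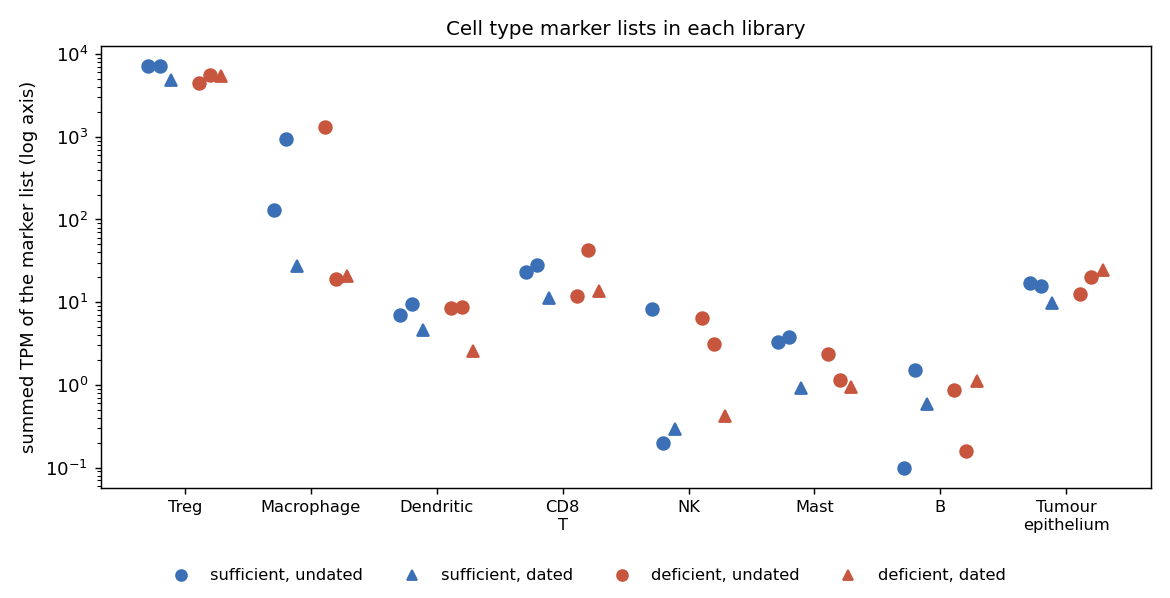
Summed TPM of 8 marker lists in each library on a log axis (circles undated, triangles dated, blue sufficient, red deficient). The macrophage list is highest in sufficient B1 (931.2) and deficient C1 (1327.6), and the CD8 list is highest in deficient D (42.5).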

How the data were processed

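The authors deposited a table of log2 values, 1 column a library. Undoing the logarithm and subtracting 1 gave column sums of 999999 to 1000001, the total of TPM values, so the unit was taken as log2(TPM + 1). Per the submitters' processing notes, which give no versions, the tools include STAR, RSEM and limma and the builds GRCm38 and mm10. Read counts cannot be recovered from TPM, depth is therefore unknown and no interval for counting error is given. All 55450 identifiers matched GENCODE mouse release 21, whose symbols replaced 27 in the table. Column names give the group of a library but no replicate number.

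Genes at a log2 value of at least 1 in at least 3 of 6 libraries were compared with limma (lmFit, eBayes with a mean-variance trend, no covariate), with Benjamini-Hochberg adjustment over 12155 genes and a call at 0.05. Differences are deficient minus sufficient in log2(TPM + 1), which understates changes of low genes. Scripts were tested on simulated data. The members, gene lists and tests were chosen with earlier results of these data known. Genes were named by position within 1 Mb, by call, and otherwise as the 2 largest non-overlapping differences of each list. Alternatives covered the filter, pseudocount, normalization, variance model, a date block, the window and the omission of single libraries. A fit without sufficient B1 and deficient C1 was chosen after seeing the data. Fits used limma 3.58.1 in R 4.3.3. Tables and figures were made with pandas 2.3.3 and matplotlib 3.10.9 in Python 3.11.15. 1 gene near Havcr2 is not reported here.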

Additional observations from a re-analysis of the deposited data

How the results depend on the processing

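Havcr2 and 2310031A07Rik were lower in deficient libraries in all 15 alternative fits, with differences of -2.24 to -1.37 and -1.99 to -1.62. The filter, the variance model and the date block cannot alter these differences. Leaving out libraries cannot reverse their sign, because the groups do not overlap for either gene. Both genes were chosen with this contrast known, so nothing is read from this count. Genes called over the whole table, 25 with all libraries, numbered 1 with no filter on low values, 38 with quantile normalization, 4 with no variance trend, 240 with a date block and 0 without both libraries of high macrophage markers, and 0 to 121 when 1 library was left out (0 without sufficient B1 or deficient D, 2 without sufficient A1, 11 without deficient C1, 121 without the deficient dated library). Within 1 Mb of Havcr2 the count of 1 became 0 with no filter, 0 with no variance trend and 2 with the date block. It was 0 without both libraries of high macrophage markers and 0 to 1 with 1 library left out. The gene counted was 2310031A07Rik, with Havcr2 as the second under the date block, both chosen with this contrast known. Without the 5 members the count with all libraries was 0. The count for the Tim family list, 0, became 1 with quantile normalization and 3 with the date block (Havcr2, Maf and Ptpn6), and 0 to 2 with 1 library left out. The count for the ADAM list was 0 to 1 with 1 library left out. Of the 5 genes most like Havcr2, 4 remained with quantile normalization. Median centring moved the median difference of all tested genes by -0.13. No paired analysis was possible because the column names carry no replicate number, and only the date mark, shared by 1 library of each group, could serve as a block. Leaving out 1 library, or a pair so that 2 libraries a group remain, also means that fewer samples enter the test. The cause of the changes in these counts was not tested. The unknown depth limits what can be said of genes near 0, such as Fam71b and Timd4.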
